A study of Mus musculus with 20 samples.

Results

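The genes described here are the expressed neighbours of Thbs1 on mouse chromosome 2, in a liver dataset of wild type (WT) and TSP-1 knockout mice. A row of the deposited table was taken as a neighbour when it lay on chromosome 2 with a start between 114000000 and 122100000 (GRCm38) and had more than 0.5 FPKM (fragments scaled to gene length and to the assigned fragments of the library) in at least 5 of 20 libraries, with Thbs1 itself left out. This gave 82 genes, out of 176 rows in the window, 14524 genes that passed the same filter genome-wide and 38924 rows in all. The members were thus chosen by their position and selected on their expression level over all 20 libraries, and the limits of the window were set with the genotype differences already known. Of the 82 genes, 72 were protein coding, 6 were pseudogenes, 2 lincRNAs, 1 an antisense RNA and 1 a processed transcript, with 10 before the start of Thbs1 and 72 after it.

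The livers came from male mice in 4 groups of 5, each mouse giving 1 library. WT mice were fed the control diet (NDWT) or CDAHFD (HFWT), and so were TSP-1 knockout mice (NDKO and HFKO). CDAHFD is a high fat diet without choline and with limited methionine, in which amino acids stand in for protein. It was fed for 12 weeks as a model of non-alcoholic steatohepatitis. All mice were bought from 1 supplier at 5 weeks of age, the WT as C57BL/6J and the knockouts as a separate stock labelled with a C57/BL6 background and lacking TSP-1 in the whole animal, not only in liver. No source used here calls the WT mice littermates of the knockouts, so a difference between the genotypes cannot be told apart from a difference between the stocks.

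TSP-1, or thrombospondin 1, is a secreted matrix protein that activates latent TGF-β1. Genes on either side of a targeted locus are of interest in any knockout line because they travel with it: DNA linked to the altered allele is inherited with it through backcrossing. The neighbours have no common function. They include kinases and calcium-binding proteins, mitotic genes, a translation initiation subunit, a chaperone of the endoplasmic reticulum and an enzyme of leucine breakdown. The deposited values are per gene and hold no alleles.

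4 neighbours passed the thresholds of FDR (false discovery rate) and fold change given below between the genotypes on both diets. Others also differed on both diets without passing both thresholds, as given below. Only the promoters of the 4 that passed on both are shown. Each runs from 250 bases before to 50 bases after the annotated start, 5′ to 3′ on the strand of the gene, from RefSeq on GRCm38.p6, where 70 of the 82 genes had an entry. Capitals mark the letters of a GC box (GGGCGG) or a CCAAT box, read on either strand. In order they cover chr2:119547457-119547756, chr2:119742087-119742386, chr2:122028330-122028629 and chr2:122118337-122118636.
Chp1: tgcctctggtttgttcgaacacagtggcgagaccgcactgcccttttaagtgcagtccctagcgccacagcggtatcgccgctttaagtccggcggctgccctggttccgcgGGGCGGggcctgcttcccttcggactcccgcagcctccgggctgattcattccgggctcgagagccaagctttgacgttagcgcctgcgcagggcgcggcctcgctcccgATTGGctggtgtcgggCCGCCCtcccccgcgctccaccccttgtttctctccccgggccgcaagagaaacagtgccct
Itpka: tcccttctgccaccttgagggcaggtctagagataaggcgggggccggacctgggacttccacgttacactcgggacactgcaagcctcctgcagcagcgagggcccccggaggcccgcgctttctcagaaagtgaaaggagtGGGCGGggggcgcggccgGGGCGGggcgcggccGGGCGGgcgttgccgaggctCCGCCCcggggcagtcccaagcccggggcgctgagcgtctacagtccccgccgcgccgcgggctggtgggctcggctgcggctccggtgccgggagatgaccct
Eif3j1: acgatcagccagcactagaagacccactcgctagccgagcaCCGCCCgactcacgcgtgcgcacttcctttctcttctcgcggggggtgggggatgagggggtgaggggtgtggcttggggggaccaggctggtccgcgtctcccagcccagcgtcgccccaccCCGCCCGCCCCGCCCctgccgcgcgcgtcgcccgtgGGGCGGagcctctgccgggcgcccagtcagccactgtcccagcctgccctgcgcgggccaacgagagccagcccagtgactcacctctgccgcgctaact
Spg11: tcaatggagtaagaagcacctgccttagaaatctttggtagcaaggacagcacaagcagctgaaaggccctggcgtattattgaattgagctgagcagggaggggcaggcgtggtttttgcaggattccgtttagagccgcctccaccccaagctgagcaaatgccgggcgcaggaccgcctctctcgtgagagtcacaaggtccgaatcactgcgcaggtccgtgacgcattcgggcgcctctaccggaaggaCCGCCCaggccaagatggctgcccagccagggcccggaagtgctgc
The GC box was found 2 times in Chp1, 4 times in Itpka, 5 times in Eif3j1 and 1 time in Spg11, and it occurs in 35.7% of all 32851 promoters of this length. A CCAAT box occurs in 37.4% of them and was found in Chp1 only among the 4. None of the 4 held TATAAA, which 13.6% of all promoters hold. Counts of the CG dinucleotide were 30, 33, 31 and 17 in the same order, against a median of 7 over all promoters. The set of all promoters was not limited to genes expressed in liver, so none of these counts is shown to be particular to the 4. These are the letters of the reference strain, and a match is not evidence of a factor bound there.

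Libraries held between 15641545 and 23276322 assigned fragments, and 3 fragments on a gene of 1 kb came to between 0.129 and 0.192 FPKM, a limit that covers counting error only. Markers of hepatocytes were high in every group, with summed levels between 28584 and 50563 FPKM, but 2 of the 8 were called higher in NDKO than in NDWT, and the diet lowered 3 in WT and 5 in TSP-1 null. Of the lists of other cell types, the genotype changed 1 stellate cell marker (lower) and 1 macrophage marker (higher) on the control diet and none on CDAHFD, and 1 macrophage marker passed the interaction, whereas the diet raised all 8 stellate cell, all 5 cholangiocyte and all 5 proliferation markers in both genotypes. Fewer cells of a type and less RNA per cell cannot be told apart in these bulk samples. Thbs1, the targeted gene, was read first (118111876 to 118127133, plus strand). It lay between 0.058 and 0.326 FPKM in NDWT and between 0.986 and 1.90 in NDKO, so that it went against the labels on the control diet. On CDAHFD it lay between 3.46 and 6.10 in HFWT and between 3.05 and 4.398 in HFKO. The genotype difference of Thbs1 passed the test on the control diet (log2FC 2.28, FDR 1.02e-05), did not pass on CDAHFD (log2FC −0.39, FDR 0.408) and differed between the diets (log2FC −2.66, FDR 0.0023). The null groups are therefore called the libraries labelled TSP-1 null, and each direction below rests on those labels. The table has 1 value per gene, and transcripts of an altered allele could not be separated from intact ones in it.

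On the control diet, 11 of the 82 neighbours differed between the libraries labelled TSP-1 null and WT, which is 13.4% beside 4.77% of all tested genes. A gene was called at a Benjamini-Hochberg FDR under 0.05 over all tested genes and an absolute log2FC above 0.58, in 1 limma fit of log2(FPKM + 0.1) over the 20 libraries. 3 were higher in NDKO (Pak6, Itpka and Catsper2), where 1.74% of all tested genes were called higher, and 8 were lower (Spred1, Bmf, Bub1b, Chp1, Pdia3, Casc4, Eif3j1 and Spg11), where 3.03% of all were called lower. On CDAHFD, 5 neighbours were called, or 6.10% beside 0.496% of all tested genes. Itpka was higher in HFKO, in a direction where 0.165% of all genes were called, and Chp1, Mfap1b, Eif3j1 and Spg11 were lower, where 0.33% of all were called. Quantile normalization gave 3 higher and 4 lower on CDAHFD, with Ganc and Rpap1 gained, and a fit of HFWT and HFKO alone gave 0 higher and 4 lower, with Itpka lost. Itpka, Chp1, Eif3j1 and Spg11 were called on both diets in the same direction, 4.88% of the neighbours beside 0.248% of all tested genes. Eif3j1 and Spg11 have overlapping exons and may share reads, as given below. The genotype comparisons on the 2 diets used different mice but shared 1 estimate of the spread. Since the window was chosen with these differences known, the shares are given without a test.

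**Figure D1:**
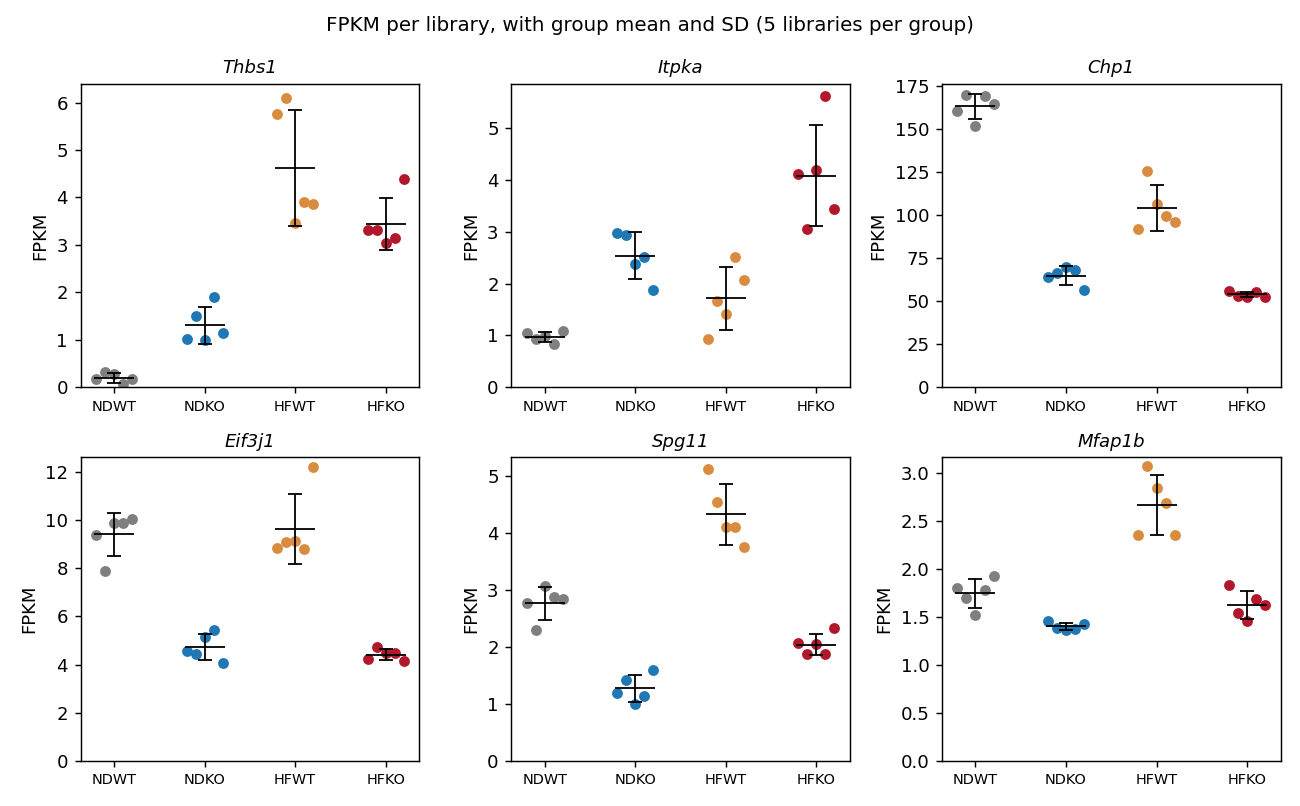
FPKM of Thbs1 and of the 5 neighbours called on CDAHFD, in each of the 20 libraries (points) with the group mean and SD (bars, 5 libraries per group). Itpka is higher, and Chp1, Eif3j1, Spg11 and Mfap1b are lower, in every library labelled TSP-1 null than in any WT library of the same diet.

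Chp1 (ENSMUSG00000014077.7, 119547697 to 119587027, plus strand) encodes a calcium-binding protein that works as a cofactor of sodium-proton exchangers, and it was the most abundant of the neighbours in NDWT. Its FPKM was 161, 170.0, 152, 169 and 165 in the NDWT mice and 64.2, 66.1, 69.7, 68.3 and 56.2 in the NDKO mice. On CDAHFD it was 92.2, 126, 107, 99.6 and 96.2 in HFWT and 56, 53.1, 52.5, 55.5 and 52.4 in HFKO. Every library labelled TSP-1 null was below every WT library, whatever the diet. The means were 163 ± 7.36 and 64.9 ± 5.29 FPKM on the control diet (log2FC −1.33, SE 0.07, FDR 9.17e-10), and 104 ± 13.3 and 53.9 ± 1.72 on CDAHFD (log2FC −0.94, SE 0.07, FDR 1.91e-07; SD, n = 5). With 2907 to 13081 fragments per library, counting error was small beside the spread between mice. The genotype effect was smaller on CDAHFD by 0.39 on the log2 scale, which did not pass the test of the difference (log2FC 0.39, SE 0.11, FDR 0.0765). Chp1 shares 6.70% of its 31-base words with other genes, most of them with Gm20056.

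Itpka (ENSMUSG00000027296.7, 119742337 to 119751263, plus strand) encodes a kinase that phosphorylates inositol trisphosphate, the messenger that releases calcium from internal stores, and it starts under 1 Mb beyond Chp1. Its FPKM was 1.04, 0.923, 0.989, 0.833 and 1.07 in NDWT and 2.98, 2.93, 2.38, 2.51 and 1.88 in NDKO. Under CDAHFD it was 0.92, 1.66, 1.41, 2.51 and 2.07 in the WT and 4.11, 3.06, 4.19, 5.62 and 3.44 in the HFKO mice. The groups did not overlap on either diet, and the HFWT mice spread more widely than the NDWT mice. Means were 0.972 ± 0.0965 and 2.54 ± 0.451 FPKM on the control diet (log2FC 1.29, SE 0.20, FDR 0.000609) and 1.71 ± 0.609 and 4.08 ± 0.981 on CDAHFD (log2FC 1.25, SE 0.20, FDR 0.0034; SD, n = 5). No difference between the diets was detectable (log2FC −0.04, SE 0.29, FDR 0.969). Itpka was counted from 26 to 202 fragments per library and shares no 31-base word with another gene. When HFWT and HFKO were fitted alone, its FDR on CDAHFD was 0.0551.

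Chp1 and Itpka moved in opposite directions between the labels. After removal of the group means, the Pearson correlation of their log2 values over the 20 libraries was 0.253. Among the tested genes most like Itpka by this measure were Gm15502 (0.800) and 1110038B12Rik (0.749), and those most like Chp1 were Gm2788 (0.799), Uspl1 (0.793) and Rhbdd2 (0.781). None of these 5 is on chromosome 2. The measure takes the best of 14524 genes over 20 libraries that also share depth, and it is given as a description.

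Eif3j1 (ENSMUSG00000027236.8, 122028546 to 122056598, plus strand) encodes a subunit of the translation initiation factor eIF3, which brings the small ribosomal subunit to mRNA. It was at 9.37, 7.89, 9.89, 9.87 and 10.1 FPKM in NDWT and 4.58, 4.45, 5.13, 5.45 and 4.08 in NDKO. On CDAHFD it was at 8.83, 9.08, 9.14, 8.82 and 12.2 in HFWT and 4.23, 4.71, 4.48, 4.47 and 4.13 in HFKO. On both diets the lowest WT library was above the highest library labelled TSP-1 null. It fell on the control diet (log2FC −0.98, SE 0.10, FDR 4.94e-06) and on CDAHFD (log2FC −1.10, SE 0.10, FDR 7.76e-07), and the interaction was not called (log2FC −0.12, SE 0.14, FDR 0.735). This gene shares 38.4% of its 31-base words with others, 2207 of them with Eif3j2, a near copy on chromosome 18.

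**Figure D2:**
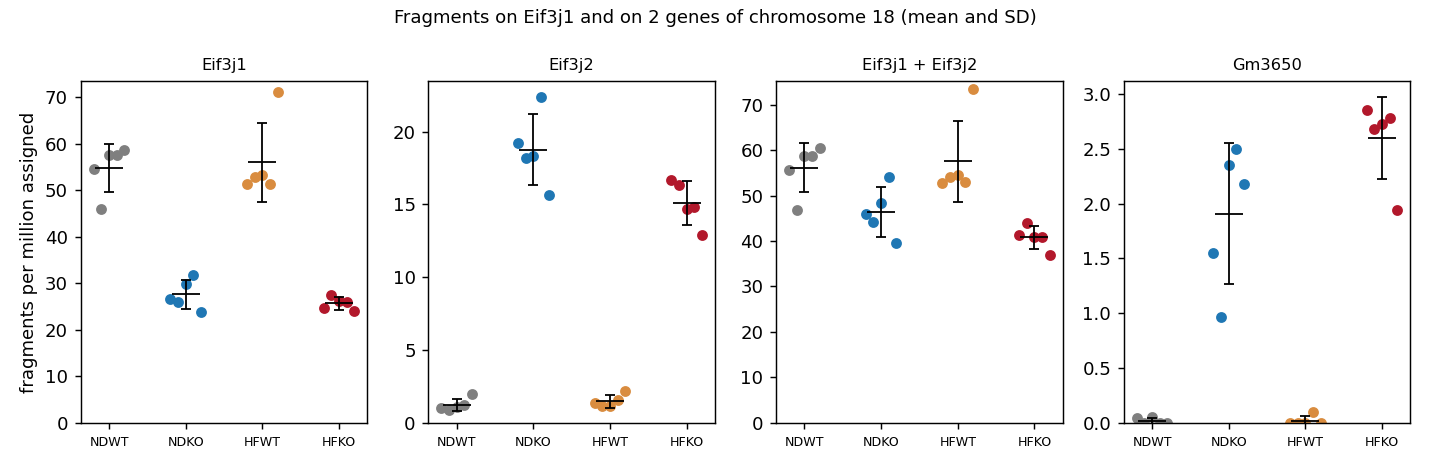
Fragments per 1000000 assigned fragments on Eif3j1, on Eif3j2 and Gm3650 of chromosome 18, which share sequence with Eif3j1 or Spg11, and on Eif3j1 and Eif3j2 together, in each library (points) with the group mean and SD (bars). Eif3j1 is lower and the other two genes are higher in the libraries labelled TSP-1 null, and the sum of Eif3j1 and Eif3j2 overlaps between genotypes on the control diet but not on CDAHFD.

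Both genes on chromosome 18 moved against Eif3j1. They lie close together there, Gm3650 from 43472816 to 43475169 and Eif3j2 from 43475418 to 43477836, and are not independent observations. Eif3j2 rose from 1.24 ± 0.420 per 1000000 assigned fragments in NDWT to 18.8 ± 2.42 in NDKO, and from 1.48 ± 0.436 in HFWT to 15.1 ± 1.51 in HFKO. Gm3650, a pseudogene that shares 686 of its 31-base words with Spg11, lay between 0 and 0.0562 in NDWT and between 0.968 and 2.502 in NDKO, and between 0 and 0.1003 in HFWT and 1.94 and 2.85 in HFKO. Eif3j1 alone held 54.9 ± 5.17 and 27.6 ± 3.19 on the control diet. Eif3j1 and Eif3j2 together came to 56.1 ± 5.44 in NDWT and 46.4 ± 5.41 in NDKO, with overlapping groups but a lower mean (log2 difference −0.28, two-sided exact permutation test, p = 0.0317). On CDAHFD this sum was 57.5 ± 8.87 in HFWT and 40.8 ± 2.45 in HFKO, without overlap (log2 difference −0.49, exact permutation p = 0.00794, the smallest that 252 arrangements allow). With Gm3650 added as well, which shares its words with Spg11, the log2 differences were −0.22 (exact permutation p = 0.0794) and −0.40 (exact permutation p = 0.00794). Both sums thus differed less than Eif3j1 did and stayed under the threshold of 0.58. Whether fragments moved between the copies in the alignment was not tested, and the level of Eif3j1 is uncertain to that extent.

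Spg11 (ENSMUSG00000033396.7, 122053520 to 122118386, minus strand) encodes spatacsin, which takes part in rebuilding lysosomes, and it is the last neighbour inside the window. Its FPKM was 2.77, 2.29, 3.07, 2.88 and 2.84 in NDWT and 1.2, 1.42, 0.998, 1.14 and 1.6 in NDKO. On CDAHFD the HFWT mice had 5.12, 4.55, 4.1, 4.11 and 3.75, and 2.07, 1.88, 2.05, 1.88 and 2.34 was measured in HFKO. Groups were apart on both diets (log2FC −1.08, SE 0.12, FDR 1.69e-05 on the control diet, and log2FC −1.04, SE 0.12, FDR 2.56e-05 on CDAHFD). Together with Gm3650, its fragments still fell by 0.88 on the control diet and by 0.86 on CDAHFD on the log2 scale (exact permutation p = 0.00794 for each). Spg11 and Eif3j1 run toward each other, and their exons overlap over 1107 bases on opposite strands. The library kit keeps strand, but whether the counting used it is not given in the sources used here, so reads in that stretch may belong to either gene. Fragments of Spg11, Eif3j1, Eif3j2 and Gm3650 together gave a log2 difference of −0.42 on the control diet, with overlap (exact permutation p = 0.0159). On CDAHFD the log2 difference of this sum was −0.62, without overlap (exact permutation p = 0.00794).

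Mfap1b (ENSMUSG00000048222.3, 121460235 to 121474067, minus strand), which encodes a component of the spliceosome, was called on CDAHFD alone. It was at 2.35, 3.08, 2.85, 2.68 and 2.36 FPKM in HFWT and 1.83, 1.54, 1.46, 1.69 and 1.62 in HFKO (log2FC −0.67, SE 0.09, FDR 0.000313). On the control diet it was at 1.8, 1.69, 1.52, 1.78 and 1.92 in NDWT and 1.46, 1.39, 1.37, 1.38 and 1.43 in NDKO, again without overlap but under the fold threshold (log2FC −0.29, SE 0.09, FDR 0.0368). The interaction of genotype and diet was not called (log2FC −0.38, SE 0.13, FDR 0.15). The CDAHFD call was lost with median of ratios scaling (log2FC −0.57) and with a pseudocount of 1 (−0.48), both under the fold threshold. It shares 66.4% of its words, chiefly with its neighbour Mfap1a, and fragments of both genes together gave a log2 difference of −0.32 on CDAHFD (exact permutation p = 0.00794) and −0.08 on the control diet (exact permutation p = 0.365).

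The other 7 neighbours called on the control diet were not called on CDAHFD, and no test of the difference between diets passed for any of them. Casc4 (ENSMUSG00000060227.9, 121866970 to 121936220, plus strand), which encodes a membrane protein of the Golgi, had the largest fall among the 82 genes there. It was at 0.843, 0.522, 0.585, 0.686 and 0.582 FPKM in NDWT and 0.132, 0.301, 0.128, 0.16 and 0.203 in NDKO (log2FC −1.40, SE 0.19, FDR 0.000119). On CDAHFD the 5 HFWT values, 1.16 to 1.89, lay above the 5 HFKO values, 0.644 to 1.13, but did not reach the FDR (log2FC −0.60, SE 0.19, FDR 0.117).

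Pdia3 (ENSMUSG00000027248.7, 121413775 to 121438687, plus strand) encodes a protein disulfide isomerase that helps glycoproteins fold in the endoplasmic reticulum. Its FPKM was 113, 142, 188, 124 and 135 in NDWT and 54.1, 89.6, 72.2, 72.3 and 87.9 in NDKO (log2FC −0.90, SE 0.14, FDR 0.000449). On CDAHFD the groups overlapped, at 94.5 to 136 in HFWT and 85.0 to 103 in HFKO (log2FC −0.26, SE 0.14, FDR 0.346), and the interaction was not called (log2FC 0.65, SE 0.19, FDR 0.115).

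Spred1 (ENSMUSG00000027351.8, 117121374 to 117182279, plus strand), an inhibitor of Ras and MAP kinase signalling, was the called gene that lay before Thbs1. It was at 3.1, 4.28, 2.86, 2.94 and 3.28 FPKM in NDWT and 1.53, 2.29, 1.64, 1.49 and 1.55 in NDKO (log2FC −0.92, SE 0.13, FDR 0.000215), without overlap. On CDAHFD it lay between 4.15 and 5.84 in HFWT and between 3.97 and 5.11 in HFKO, with overlap (log2FC −0.25, SE 0.13, FDR 0.316, interaction log2FC 0.66, SE 0.18, FDR 0.0827).

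Of the last 4, Bub1b and Pak6 were near the limit of detection on the control diet. Both were under 0.5 FPKM in every library of that diet and passed the filter only through CDAHFD libraries. Bmf, a BH3-only inducer of apoptosis, lay between 0.699 and 1.43 FPKM in NDWT and 0.369 and 0.706 in NDKO (log2FC −0.84, SE 0.18, FDR 0.00591), with 1 NDKO library reaching into the WT range, and had no clear difference on CDAHFD (log2FC −0.09, SE 0.18, FDR 0.827). Bub1b, a kinase of the spindle checkpoint, lay between 0.152 and 0.308 in NDWT and between 0.045 and 0.139 in NDKO (log2FC −0.87, SE 0.23, FDR 0.0188), from 4 to 25 fragments per library. Its CDAHFD values overlapped at 1.25 to 1.85 in HFWT and 0.604 to 1.61 in HFKO (log2FC −0.65, SE 0.23, FDR 0.164). The summed proliferation markers overlapped between genotypes, at 0.918 to 1.65 FPKM in NDWT and 0.625 to 1.63 in NDKO, and their part in the result was not tested.

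Pak6, a p21-activated kinase, was higher in NDKO at 0.144 to 0.247 FPKM than in NDWT at 0.032 to 0.140 (log2FC 0.66, SE 0.21, FDR 0.0442), but NDWT libraries held only 3 to 17 fragments. Its call was lost in 19 of 31 alternative computations, among them the omission of any 1 of 9 of the 10 control diet mice. Catsper2, a subunit of the sperm calcium channel, was at 1.06 to 1.47 in NDWT and 1.41 to 2.61 in NDKO (log2FC 0.65, SE 0.16, FDR 0.00969), and the groups overlapped in 1 NDKO library. Without NDKO mouse 1 its log2FC was 0.57 and without NDKO mouse 5 it was 0.57, both under the fold threshold. Catsper2 and Pdia3 overlap by 18 exonic bases on opposite strands.

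**Figure D3:**
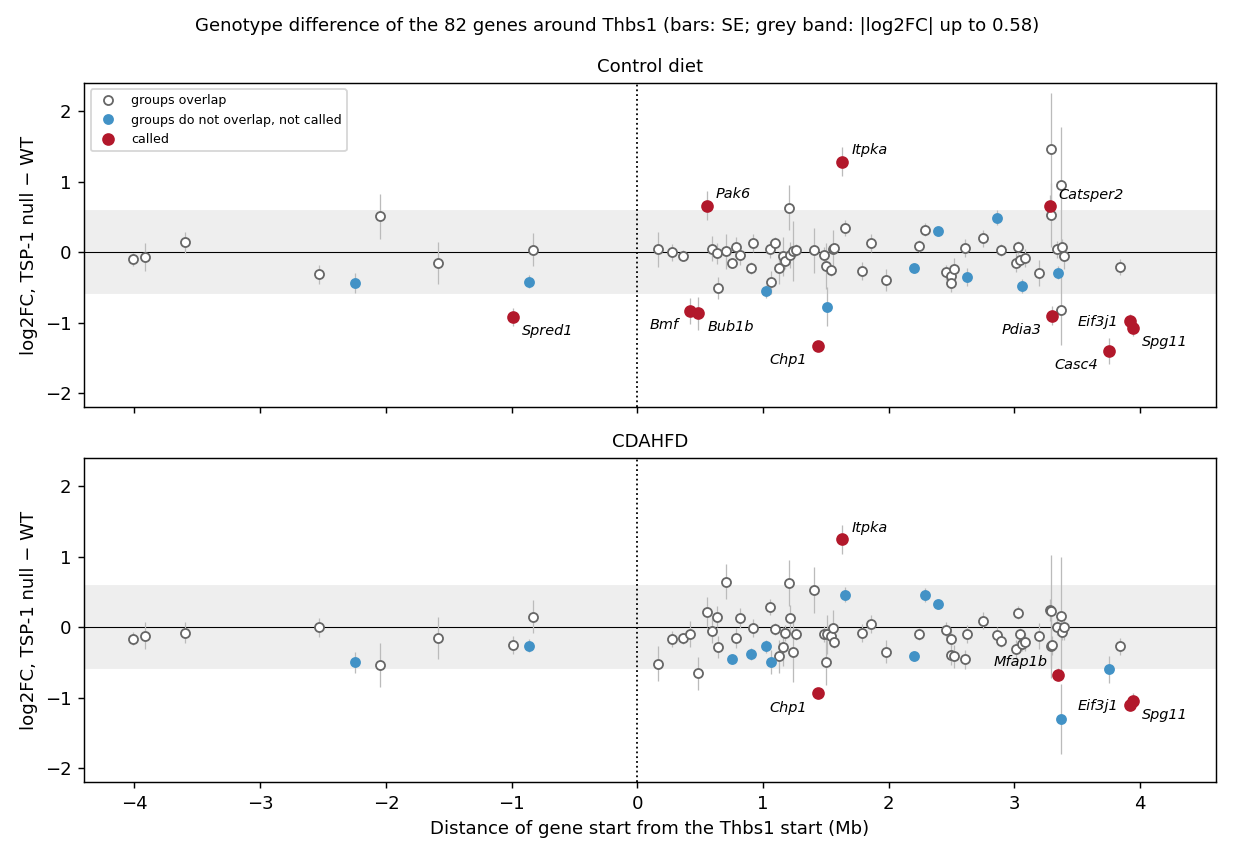
Genotype difference (log2FC, libraries labelled TSP-1 null minus WT, bars SE) of the 82 neighbours on each diet, against the distance of each gene start from the Thbs1 start in Mb. Called genes are red, genes whose groups do not overlap blue, and the others open; the called genes on CDAHFD lie near 1.5 Mb and beyond 3 Mb after Thbs1, with uncalled genes between.

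The 4 nearest neighbours on each side of Thbs1 were Gm13991, Spred1, Fam98b and Rasgrp1 before it and Gpr176, Eif2ak4, Srp14 and Bmf after it. Spred1 and Bmf were called on the control diet and none of the 8 on CDAHFD. Gpr176, an orphan receptor and the closest, lay between 0 and 0.051 FPKM in NDWT and 0 and 0.041 in NDKO, from at most 4 fragments, and between 0.519 and 0.875 in HFWT and 0.267 and 0.592 in HFKO (log2FC −0.52, FDR 0.29). Eif2ak4, the amino acid sensor GCN2, was at 1.17 ± 0.147 and 1.17 ± 0.193 FPKM on the control diet and 2.26 ± 0.2 and 2 ± 0.234 on CDAHFD, neither called. Srp14, a subunit of the signal recognition particle, was at 19 ± 2.08 and 18.2 ± 1.1 FPKM and at 29 ± 2.82 and 25.9 ± 2.19. Fam98b, a subunit of the tRNA ligase complex, did not overlap between genotypes on either diet (log2FC −0.42 and −0.26), while Rasgrp1, a Ras activator of lymphocytes, did (log2FC 0.03 and 0.15). The pseudogene Gm13991 rested on 3 to 9 fragments per library.

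At the limits of the window, the first neighbour, Aqr, an RNA helicase of the spliceosome, was not called (log2FC −0.10 on the control diet and −0.17 on CDAHFD), and nor was the nearest gene outside, Arhgap11a (−0.35 and −0.02). At the far end Spg11 was called and B2m, the next gene beyond it, was not (−0.05 and −0.10). The gene after that, Sord, sorbitol dehydrogenase, was called on both diets (−1.27 and −0.91), so the window does not end where the called genes end. Sord was at 622 ± 62.8 and 259 ± 35.6 FPKM on the control diet and 656 ± 20.99 and 350 ± 33.8 on CDAHFD.

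Counts along the chromosome were uneven. Of the 39 tested genes 20 to 10 Mb before Thbs1, 8 were called on the control diet and 5 on both diets, a larger share than among the 82 neighbours. None of the 15 genes between 10 Mb before Thbs1 and the window was called on either diet. From the end of the window to 10 Mb after Thbs1, 3 of 49 genes were called on both diets: Sord, Gatm and Gpat2. Of the 78 genes 10 to 20 Mb after it, 10 were called on the control diet and 1 on both, Pcna. Farther out, 20 to 30 Mb from Thbs1, 3 of 27 genes after it were called on the control diet and 1 on both, Mgme1, and 2 of 59 genes before it were called there and 1 on both, 2810002D19Rik. More than 30 Mb before Thbs1, 26 of 493 genes were called on the control diet, and more than 30 Mb after it 10 of 312, with 0 on both diets in either stretch. On the other chromosomes 619 of 13369 genes were called on the control diet, 54 on CDAHFD and 21 on both, which is 4.63%, 0.404% and 0.157%. The called genes outside the window were named after their values were seen.

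**Figure D4:**
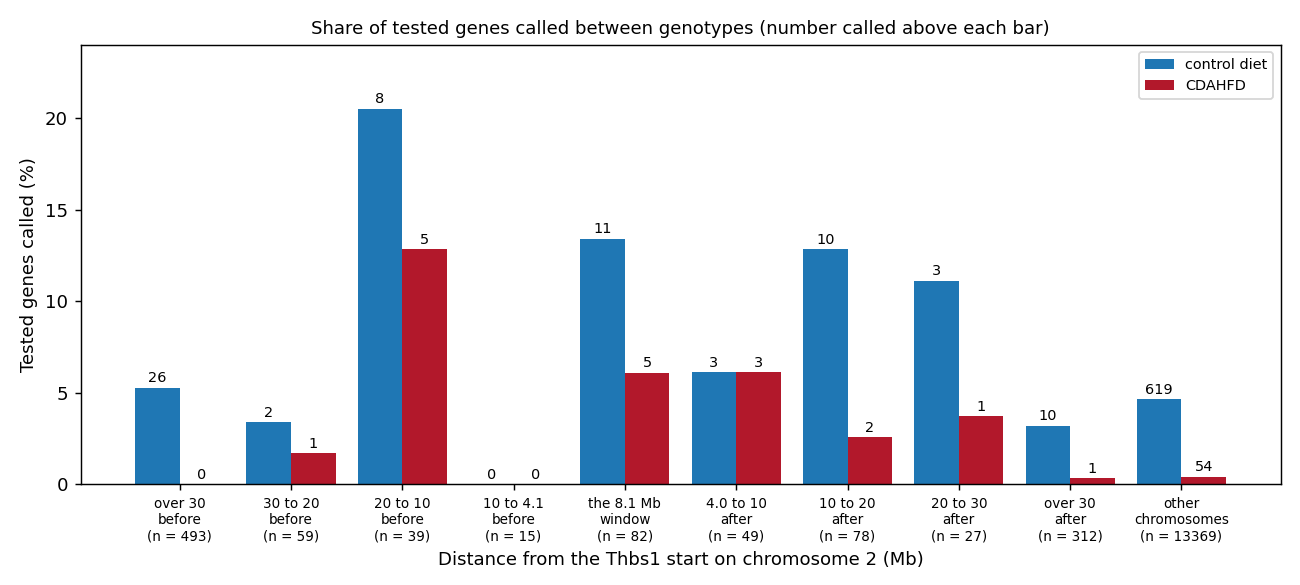
Share of tested genes called between the genotypes (bars, percent) in stretches of chromosome 2 ordered by distance from Thbs1 in Mb, and on all other chromosomes, with the number called above each bar and the number tested below. The window around Thbs1 has 13.4% called on the control diet and 6.10% on CDAHFD, and the stretch 20 to 10 Mb before Thbs1 has 20.5% and 12.8%.

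A looser reading of the same values, without a fold threshold, gave 23 neighbours with an FDR under 0.05 on the control diet, beside 13.1% of all tested genes, and 11 on CDAHFD, beside 1.12%. Every library of 1 genotype lay beyond every library of the other for 19 neighbours on the control diet (4 higher and 15 lower in NDKO, where 9.03% of all tested genes did not overlap) and for 17 on CDAHFD (4 higher and 13 lower in HFKO, beside 4.98%). For 11 neighbours this held on both diets in the same direction, beside 0.833% of all tested genes. Itpka and Zfp106 were higher, and Meis2, Fam98b, Rmdn3, Chp1, Vps39, Mfap1b, Casc4, Eif3j1 and Spg11 were lower. Zfp106, an RNA-binding zinc finger protein, was at 7.46 ± 0.249 and 9.18 ± 0.309 FPKM on the control diet and 8.71 ± 0.592 and 11 ± 1.11 on CDAHFD, a small difference (log2FC 0.30 and 0.33) that was larger than the spread between mice.

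The sign of the genotype difference was the same on both diets for 60 of the 82 neighbours, or 73.2%, beside 62.0% of all tested genes. All 11 neighbours called on the control diet had the same sign on CDAHFD, beside 77.1% of all genes called there. Across the neighbours the Pearson correlation of the log2FC values was 0.682, and 0.550 over the 78 neighbours without the 4 called on both diets, beside 0.213 across all tested genes. These are correlations across genes, which are not independent replicates. The window was also chosen with the genotype differences known, so these shares and correlations are given without a test. The median log2FC of the neighbours was −0.06 on the control diet and −0.12 on CDAHFD, beside −0.07 and −0.10 over all tested genes. Their median absolute log2FC was 0.226 and 0.224, beside 0.180 and 0.149.

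**Figure D5:**
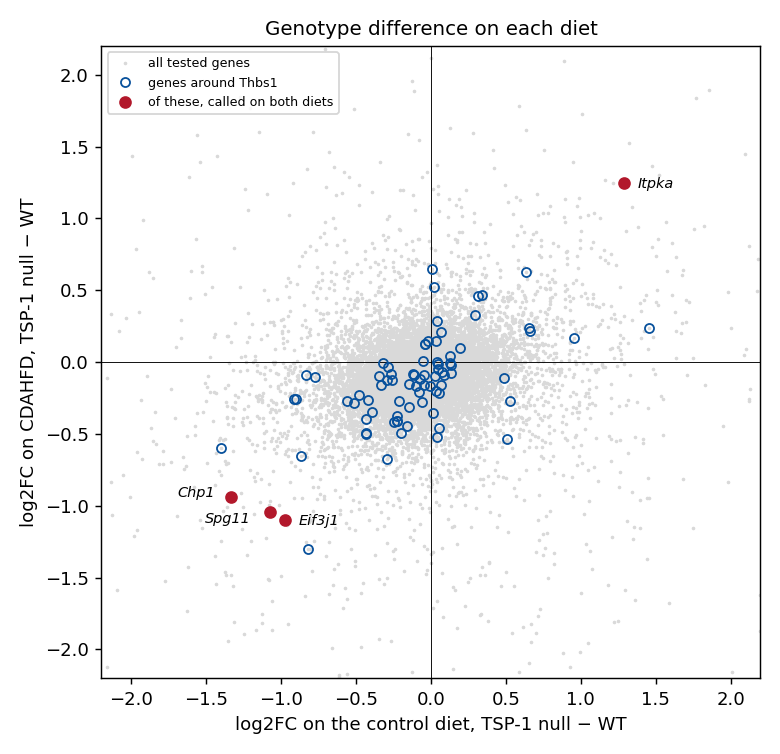
Genotype difference on CDAHFD (vertical, log2FC) against that on the control diet (horizontal, log2FC) for the 82 neighbours (blue circles), the 4 of them called on both diets (red) and all tested genes (grey, those beyond the axes not drawn). Of the neighbours called on both diets, Itpka lies at the upper right and Chp1, Spg11 and Eif3j1 lie together at the lower left.

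No neighbour passed the test of the difference between the diets, where 0.647% of all tested genes were called. By limma 12 neighbours had an unadjusted p under 0.05, beside 15.1% of all tested genes, and the lowest FDR was 0.0666 (Tmem62, log2FC −0.60). Leaving out 1 mouse gave calls: Spred1 and Tmem62 passed without NDKO mouse 2, Tmem62 without NDKO mouse 5, and Spred1 also with the replicate number as a block. With all mice and no block, the larger number of calls on the control diet than on CDAHFD is not shown to be a difference between diets for any single neighbour.

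By function, the 82 genes fall into 7 groups and 14 ungrouped genes. Of 5 members for calcium, inositol phosphate and phospholipase signalling, Itpka was higher and Chp1 lower on each diet and 3 were not called. Among these Plcb2, a phospholipase that makes inositol trisphosphate, was at 0.498 ± 0.0814 and 0.525 ± 0.138 FPKM on the control diet and 2.29 ± 0.305 and 2.25 ± 0.61 on CDAHFD.

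Of 13 genes of membrane traffic and organelles, Casc4 and Spg11 fell on the control diet and Spg11 on CDAHFD. Rmdn3, which tethers the endoplasmic reticulum to mitochondria, was at 17.3 ± 2.4 and 11.6 ± 0.786 FPKM on the control diet, just under the fold threshold (log2FC −0.56, FDR 0.000653), and at 16.4 ± 1.56 and 13.6 ± 0.941 on CDAHFD. Snap23, a SNARE of exocytosis, was at 7.83 ± 1.26 and 6.35 ± 0.571 and at 11.4 ± 1.57 and 11.1 ± 0.888, neither called.

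Of 7 genes of translation and protein quality control, Pdia3 and Eif3j1 fell on the control diet and Eif3j1 on CDAHFD. Serf2, a small protein linked to aggregation, was at 9.96 ± 1.43 and 10.3 ± 1.8 FPKM and at 13.9 ± 1.46 and 13.8 ± 0.882, neither called. Of 11 genes grouped under cell surface and receptor signalling, a loose name that also covers Bmf and Ccndbp1, Pak6 rose on the control diet. Spred1 and Bmf fell there, and none of the 11 was called on CDAHFD. Lrrc57 (log2FC −0.34 and −0.16) and Ccndbp1, a partner of D-type cyclins (0.03 and −0.20), were the most abundant of those besides Spred1.

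Of 9 genes of mitosis and DNA repair, Bub1b fell on the control diet and none was called on CDAHFD. Haus2, a subunit of the augmin complex of the spindle (log2FC −0.43 and −0.40), Tubgcp4, a subunit of the γ-tubulin ring (−0.48 and −0.23), and Ino80, a chromatin remodeller (0.03 and −0.10), did not reach the fold threshold. None of the 9 genes grouped under metabolic enzymes, a loose name that also covers Gchfr and Ndufaf1, was called on either diet. Gchfr, the feedback regulator of GTP cyclohydrolase, was at 135 ± 18.5 and 137 ± 11.1 FPKM on the control diet and 82.1 ± 8.97 and 101 ± 18.6 on CDAHFD. Ivd, isovaleryl-CoA dehydrogenase of leucine breakdown, was at 31.4 ± 1.4 and 23.1 ± 2.08 on CDAHFD without overlap (log2FC −0.45, FDR 0.0034), under the fold threshold, and at 35.7 ± 3.05 and 32 ± 2.33 on the control diet. Ndufaf1, an assembly factor of mitochondrial complex I, was at 13.7 ± 0.927 and 11.4 ± 1.29 on the control diet (log2FC −0.26, FDR 0.0337).

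Of 14 genes of transcription, chromatin and RNA, none was called on the control diet and Mfap1b on CDAHFD. Bahd1, a heterochromatin protein, was at 3.88 ± 0.471 and 4.15 ± 1.02 FPKM on the control diet and 8.55 ± 1.04 and 7.65 ± 1.02 on CDAHFD, and Rtf1, a transcription elongation factor, at 5 ± 0.37 and 5.18 ± 0.25 and 7.33 ± 0.624 and 6.3 ± 0.626. Of the 14 ungrouped genes, Catsper2 was called on the control diet and none on CDAHFD. The extreme uncalled values belonged to pseudogenes with few fragments, chosen after they were seen. Gm14000 on the control diet (log2FC 1.46, SE 0.79, FDR 0.247) rested on 0 to 6 fragments per library in NDWT and 4 to 10 in NDKO. Gm14018 on CDAHFD (log2FC −1.30, SE 0.50, FDR 0.191) rested on 5 to 13 in HFWT and 1 to 5 in HFKO. Its FPKM did not overlap there, and it shares 63.5% of its words with Wdr76.

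CDAHFD changed 49 of 82 in WT (46 higher and 3 lower, beside 48.8% of all tested genes called). In the libraries labelled TSP-1 null it changed 38 of 82 (38 higher and 0 lower, beside 45.9%). These comparisons share libraries with the genotype comparisons. FPKM is a share of the assigned fragments, and the median gene moved by 0.53 in WT and 0.50 in TSP-1 null on the log2 scale. With median of ratios scaling, which takes that shift away, 17 neighbours were higher and 8 lower in WT, and 20 were higher and 7 lower in TSP-1 null. Without that scaling, as in the values that follow, the 3 called lower in WT were Gchfr, Exd1 and Chp1. Chp1 fell with the diet in WT (log2FC −0.66, FDR 1.89e-07), which left HFWT, at 104 ± 13.3 FPKM, still above NDKO, at 64.9 ± 5.29. Itpka rose with the diet in WT (log2FC 0.69) and in TSP-1 null (0.65), not far above the shift of the median gene. Eif3j1 did not pass in either genotype (log2FC 0.02 and −0.10) and lay below that shift. Spg11 rose in both (log2FC 0.62 and 0.66), again not far above it. 9 neighbours passed the filter on low values only through CDAHFD libraries and so had to be higher there. Spint1, a protease inhibitor of epithelia, is one of them, and its difference is given as a description (log2FC 4.08 and 3.89), chosen after its values were seen. The summed cholangiocyte markers moved with it, from 15.2 to 18.002 FPKM in NDWT to 292 to 488 in HFWT, and their part in the result was not tested.

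The filter bears on these counts. Of the 82 neighbours, 52 were above 0.5 FPKM in all 20 libraries, 9 passed only through CDAHFD libraries and 1, Gm14207, only through libraries labelled TSP-1 null. The members nearest to the limit were Gm14207 (5 libraries), Oip5 (6), Gpr176 (7) and Gm13991 (7), and the rows just short of it were Gm22865 (4 libraries) and Capn3 (3). Capn3, which starts at 120456019, was left out although its groups did not overlap on either diet. It was at 0.168 to 0.346 FPKM in NDWT and 0.018 to 0.087 in NDKO. On CDAHFD it was at 0.403 to 0.619 in HFWT and 0.054 to 0.222 in HFKO. Its exons overlap those of Ganc by 386 bases on the same strand. The other 94 rows of the window were not tested. Among the 82 genes, 11 share more than 20% of their 31-base words with other genes and 31 have exons that overlap a gene on the other strand, which limits how firmly their values can be assigned.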

How the data were processed

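Poly(A) RNA from 20 livers was sequenced by the authors on an Illumina HiSeq instrument and processed with QuickRNASeq. The submitters' processing notes name STAR 2.5.2, featureCounts and Subread 1.5.1, and the build GRCh38, although the coordinates in the table are those of mouse GRCm38. The liver lobe is given as right medial in the series text and as right lateral in the paper. The authors deposited FPKM for 38924 genes, with no further scaling between libraries, and all 20 sample columns were used. The labels number the mice 1 to 5 within each group, and nothing else was used to form the groups. Limma p-values set a difference between group means against the spread between mice, pooled over the groups fitted and drawn toward that of other genes.

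FPKM values were tested with limma 3.58.1 in R 4.3.3 on log2(FPKM + 0.1), with a trend in the variance and 1 mean per group over all 20 libraries. The fit kept 14524 genes, those over 0.5 FPKM in 5 or more libraries. Tests were two-sided, with the Benjamini-Hochberg FDR over all of these genes, and a gene was called at an FDR under 0.05 and an absolute log2FC above 0.58. A fold change on this scale understates the change of low genes. For the interaction, the genotype difference on the control diet was subtracted from that on CDAHFD. Count models were left out because the table holds no raw counts. FPKM times gene length and library size was whole, within 0.05 of a fragment, for 100% of the values checked, which gave back fragments per gene and a median of 18950482 assigned fragments per library. No 2 of 40 library pairs within groups were copies. Sums over genes that share sequence were set side by side by an exact permutation test (two-sided), after the values were seen. Shared 31-base words and exon overlaps came from GENCODE M21 on GRCm38, and promoters from RefSeq on GRCm38.p6.

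The members, the gene groups and the marker lists were chosen with earlier results of these data known. Genes were named by a rule: Itpka and Chp1, every member called in a genotype comparison, the 4 members nearest to Thbs1 on each side, the first and last member and the genes just outside, the 3 most abundant members of each functional group, and Eif3j2 and Gm3650. Any other gene was named with its values in view. 1 gene that the likeness rule selects is not reported here. Alternatives were other pseudocounts, filters and scalings, no fold threshold, only the 2 groups compared, other eBayes settings, the replicate block, and leaving out 1 mouse at a time. Python 3.11.15 was used for tables (pandas 2.3.3; numpy 2.4.6) and for plots (matplotlib 3.10.9).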

Additional observations from a re-analysis of the deposited data

Results flagged for a closer look

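In 7 of 140 checks of a named gene within a group of 5 mice, the highest or lowest mouse stood apart from the others by more than 0.71 of the group's range (Dixon's limit), and chance alone gives about 1 in 20. Spred1 was at 2.29 FPKM in NDKO mouse 2, with the next at 1.64, and at 5.113 in HFKO mouse 5, with the next at 4.212. Gpr176 was at 0.875 in HFWT mouse 5, above 0.617, and Ivd at 30.35 in NDWT mouse 3, below 36.313. Lrrc57 was at 2.928 in HFKO mouse 2, below 3.769, and Eif3j1 at 12.205 in HFWT mouse 5, above 9.138. Thbs1 was at 4.398 in HFKO mouse 5, above 3.316.

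The genotype difference of Thbs1 depended on the diet by the interaction test (log2FC −2.66, limma FDR 0.0023): it was higher in the libraries labelled TSP-1 null on the control diet and did not detectably differ on CDAHFD.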

How the results depend on the processing

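With a pseudocount of 1 the neighbours called on the control diet numbered 6 in place of 11, without Bmf, Bub1b, Casc4, Catsper2 and Pak6, and those called with the diet 23 in WT and 23 in TSP-1 null. Without a fold threshold the counts were 23 on the control diet, 11 on CDAHFD and 63 for the diet in TSP-1 null, beside 13.1%, 1.12% and 71.6% of all tested genes. Median of ratios scaling gave 25 for the diet in WT, and quantile normalization 19 in WT, of which 9 were higher, and 24 in TSP-1 null, of which 11 were higher. With the replicate block, 1 neighbour, Spred1, passed the interaction, and 11 and 5 were called on the control diet and CDAHFD, Nusap1 for Pak6 in the first. Correlations between the deviations of same-numbered mice were weak (−0.133 to 0.081). They cannot exclude a shared litter or batch, of which the labels say nothing, so whether the numbers pair the mice was not settled. Leaving out each mouse gave 8 to 12 calls on the control diet, 5 to 5 on CDAHFD, 0 to 2 for the interaction (Spred1 and Tmem62 without NDKO mouse 2, Tmem62 without NDKO mouse 5), 43 to 51 for the diet in WT and 36 to 39 in TSP-1 null. The cause of these changes was not tested.

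Of 2112 recomputed values of named neighbours, 2028 kept direction and side of the threshold, 36 lost the call, 2 gained it and 46 changed sign. Those that changed sign were not called. The filters, the eBayes settings, the fit of 2 groups, the replicate block and leaving out a mouse of the other diet cannot change a log2FC. Most of the named values were also not called at the start, so the count of kept values does not measure robustness. Under median of ratios scaling and quantile normalization the log2FC turned to 0.0655 and 0.0489 for Eif2ak4 and 0.0254 and 0.0118 for Srp14 on the control diet. On CDAHFD it turned to 0.00560 and 0.0546 for Bmf, 0.0464 and 0.105 for Plcb2, 0.00186 and 0.0347 for Ino80, 0.0665 and 0.0488 for Snap23 and 0.0990 and 0.0775 for Serf2, and under quantile normalization to 0.0231 for Gm13991. Leaving out 1 mouse at a time, the log2FC on the control diet ran from −0.0244 to 0.167 for Bahd1, −0.0858 to 0.0561 for Eif2ak4, −0.0282 to 0.0995 for Gchfr, −0.0171 to 0.131 for Gpr176, −0.0558 to 0.134 for Plcb2, −0.0969 to 0.149 for Rasgrp1 and −0.0259 to 0.119 for Serf2. On CDAHFD it ran from −0.171 to 0.0120 for Bmf, −0.174 to 0.0583 for Plcb2, −0.0697 to 0.264 for Rasgrp1, −0.0491 to 0.0491 for Serf2 and −0.113 to 0.0197 for Snap23. Mfap1b on CDAHFD lost its call with a pseudocount of 1 (log2FC −0.48) and with median of ratios scaling (−0.57). Bub1b lost it under quantile normalization (log2FC −0.63) and without NDKO mouse 1 (−0.79).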
